A study of Mus musculus with 2 samples.

Results

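The 10 genes described here are neighbours of Cd47 on mouse chromosome 16: Slc35a5, Ccdc80, Cd200r4, Dubr, Atg3, Tagln3, Abhd10, Usf3, Naa50 and Spice1. They were chosen by position beside Cd47 and, in part, on the intensities of these same arrays, so the differences between genotypes that they show are given as a description, with no test. They make up 10 of the 18193 genes that the arrays name, and all of their 21 probe sets (the short groups of probes that each report on a transcript, mostly near its 3' end) were taken by gene symbol. The RNA was that of white matter, taken as optic nerve together with optic tract, and all mice were male. The CD47 KO group (CD47 null, a germline loss of the gene) was 12 to 15 weeks of age, and the WT group (wild-type) was 13 to 15 weeks. Each genotype was measured on 1 Affymetrix mouse genome array with pooled RNA of several animals, which the series design gives as 4 CD47 KO and 5 WT mice and the labelling protocol as 5 CD47 KO and 4 WT mice. The methods of the study give the numbers of the series design. The strain background of the CD47 KO mice, the number of backcrosses and whether the WT mice were littermates are not given in the sources used here. With 1 array per genotype there was no replicate of either genotype, and the values carry no p-value and no error between mice.

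CD47 sits on the surface of neurons and many other cells, where it engages SIRPα, a receptor that restrains microglia and phagocytes. A gene disrupted in embryonic stem cells of one mouse strain and bred into another can keep a stretch of the first strain's DNA on either side of it, in which neighbouring genes carry the alleles of that strain. Genes near a disrupted locus can therefore differ between genotypes through their own alleles or as a consequence of the loss of the gene. In these pools DNA was not compared, and a difference of flanking DNA and a difference that follows from the loss of CD47 cannot be told apart.

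Among the members, Slc35a5 and Atg3 lie head to head: they are transcribed away from each other from starts that are 155 bases apart. Slc35a5 belongs to the SLC35 family of nucleotide sugar transporters, and Atg3 encodes the E2-like enzyme that attaches LC3 to lipid in autophagy. The stretch between their starts is shown because the 2 genes share it and yet differed between genotypes by unlike amounts. It lies at chr16:45158674-45158828 on the + strand, the strand of Atg3 (RefSeq, assembly GRCm38.p6), and the capitals mark both matches to CACGTG, the E-box that USF factors are known to bind.
Slc35a5 to Atg3: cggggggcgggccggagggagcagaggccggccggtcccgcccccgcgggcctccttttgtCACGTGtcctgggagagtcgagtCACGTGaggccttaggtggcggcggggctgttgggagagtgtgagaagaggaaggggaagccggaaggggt
Of its bases 71.0% were G or C, against a median of 53.5% over the last 155 bases before the start of 32817 mouse genes. CACGTG was found in 4.4% of those windows, and 2 or more matches were found in 0.274%. On both strands together the stretch also held 2 matches to GGGCGG, the letters of a GC box. At least 1 such match was found in 28.9% of all windows of this length, and 2 or more in 13.1%. The stretch held 1 match to GAGGAA, letters that ETS factors are known to bind and that 14.9% of windows hold. TATAAA, the letters of a TATA box, was not matched here and was found in 7.8% of windows. CCAAT, bound by NF-Y, was not matched either and was found in 24.9% of windows. No matches overlapped. Dubr, a long noncoding RNA named for its place upstream of Dppa2, is shown as the other member that was over 2-fold lower in CD47 KO. Its 250 bases before the start lie at chr16:50732774-50733023 on the - strand, and the capitals mark the single match to GGGCGG, which is on the opposite strand.
Dubr: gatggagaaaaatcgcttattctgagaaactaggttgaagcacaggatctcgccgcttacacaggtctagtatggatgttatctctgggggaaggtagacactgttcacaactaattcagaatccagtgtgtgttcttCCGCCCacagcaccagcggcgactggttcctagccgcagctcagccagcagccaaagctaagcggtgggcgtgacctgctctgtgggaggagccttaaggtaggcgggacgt
This stretch had a GC share of 53.6%, close to the median of 52.4% over all windows of 250 bases, and none of the other 4 motifs was matched in it. The GC box was found in 32.7% of all windows of that length and the E-box in 6.02%. The TATA box was found in 12.4% of them, the CCAAT box in 33.8% and the ETS letters in 23.3%. A match to such letters is a description of the reference sequence, and the sequence of the mice themselves was not read.

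The signals are MAS5 intensities on a linear scale, and all ratios are CD47 KO over WT. Intensities under 106.4, the 50th percentile of both arrays together, were treated as background. A ratio in which 1 array was under this floor is a bound, computed against the floor and written as "at least". Each gene is represented by the probe set with the highest mean log2 intensity. Over the whole array 12473 genes were above the floor in at least 1 pool, and the median log2 ratio of these genes was -0.02. The repeat measurement that the arrays hold is that of different probe sets of 1 gene: over 11653 such pairs the difference of their log2 ratios had an SD of 0.36, and 95% differed by less than 0.74. Differences between mice and between hybridisations are not part of this spread.

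The targeted gene itself had a lower signal in CD47 KO. The brightest Cd47 probe set, 1428187_at, read 1346 in CD47 KO and 3928 in WT, which was 2.92-fold lower (log2 ratio -1.54). Probe set 1419554_at read 1225 in CD47 KO and 3100 in WT (log2 ratio -1.34). Probe set 1449507_a_at read 838 in CD47 KO and 2156 in WT (log2 ratio -1.36). The signal in CD47 KO was thus between 34.3% and 39.5% of that in WT over 3 probe sets that cleared the floor in each pool, so it did not reach background. Probe set 1430997_at read 36.7 in CD47 KO and 154 in WT, at least 1.44-fold lower, and 1459908_at was under the floor in both pools. Where these probe sets lie relative to the disrupted part of the gene was not examined.

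Of the 10 neighbours, 4 differed by over 2-fold: Ccdc80 and Cd200r4 were higher in CD47 KO, and Dubr and Slc35a5 were lower. The other 6, Atg3, Tagln3, Abhd10, Usf3, Naa50 and Spice1, stayed within 0.44 of 0 on the log2 scale. Among all 12473 genes measured, 1.21% were over 2-fold higher in CD47 KO and 0.818% were over 2-fold lower. Because the members were selected on values of this same contrast, nothing is read from the 4 of 10. The members did not differ in a common direction, with 7 above 0 and 3 below 0 and a median log2 ratio of 0.19.

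**Figure D1:**
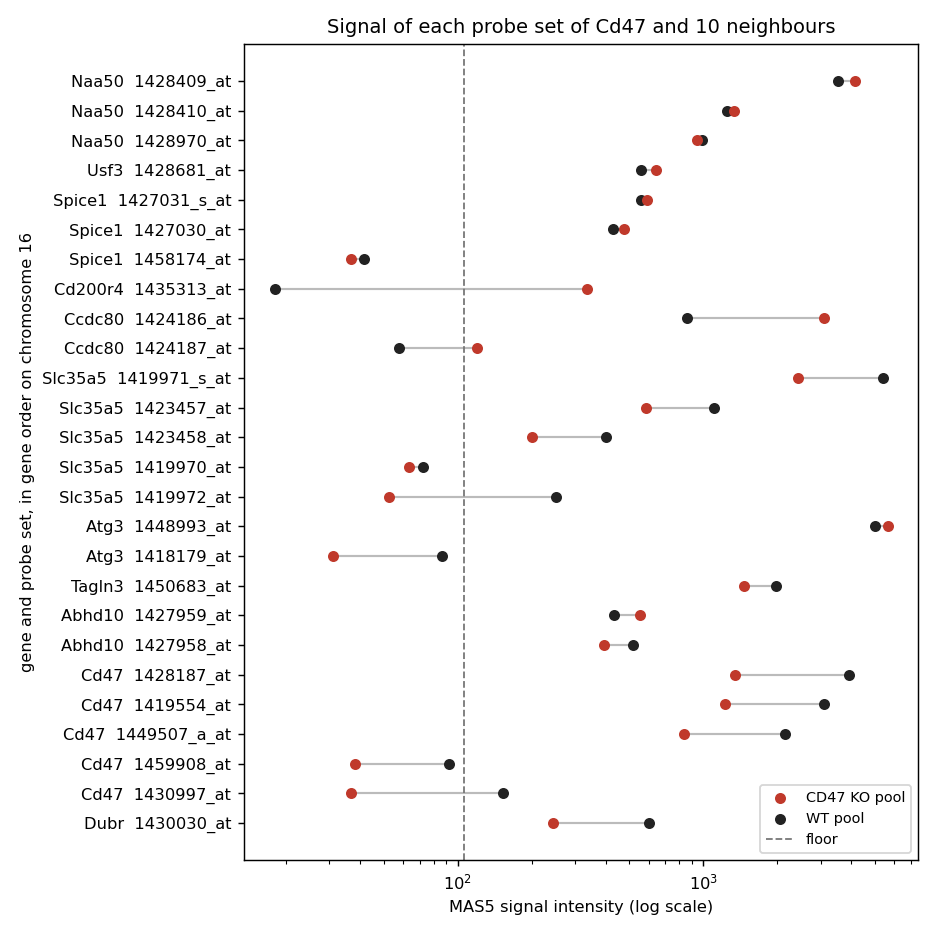
MAS5 signal intensity (log axis) of every probe set of the 10 neighbours and of Cd47 in the CD47 KO pool (red) and the WT pool (black), 1 array each, with genes in their order on chromosome 16 and the floor of 106.4 as a dashed line. In the brightest probe set of each gene, the red and black points stand far apart for Cd200r4, Ccdc80, Slc35a5, Cd47 and Dubr. They lie nearly on each other for Naa50, Usf3 and Spice1.

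Cd200r4 gave only a bound, which cannot be ranked against the ratios of the other members. Among those other members Ccdc80, a secreted protein of the extracellular matrix, had the largest ratio. Its probe set 1424186_at read 3112 in CD47 KO and 857 in WT, which was 3.63-fold higher (log2 ratio 1.86). This placed Ccdc80 at rank 17 from the highest of the 12473 genes. Its dimmer probe set, 1424187_at, read 121 in CD47 KO and, under the floor, 57.6 in WT, and was at least 1.13-fold higher. Both probe sets of Ccdc80 were thus higher in CD47 KO, though the dimmer one barely cleared the floor.

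Cd200r4, a member of the CD200 receptor family of myeloid cells, was seen above background in CD47 KO alone. Its single probe set, 1435313_at, read 337 in CD47 KO and 18.0 in WT, and was therefore at least 3.17-fold higher. The value of 337 is 1 probe set on 1 array. CD200 receptor genes resemble each other in sequence, and whether this probe set also binds transcripts of its relatives was not tested. The bound placed Cd200r4 at rank 30 from the highest.

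Slc35a5 was the member with the most repeat measurements, and all 4 of its measured probe sets were lower in CD47 KO. The brightest, 1419971_s_at, read 2436 in CD47 KO and 5390 in WT, which was 2.21-fold lower (log2 ratio -1.15). Probe set 1423457_at read 586 in CD47 KO and 1103 in WT, which was 1.88-fold lower. Probe set 1423458_at read 201 in CD47 KO and 400.1 in WT, which was 1.99-fold lower. In these 3 the signal of the CD47 KO pool was 45.2%, 53.1% and 50.2% of that of the WT pool, and their log2 ratios lay within 0.23 of each other. Probe set 1419972_at read 52.5 in CD47 KO, under the floor, and 251 in WT, so that it was at least 2.36-fold lower. The fifth, 1419970_at, was under the floor in both pools, at 63.3 in CD47 KO and 72.6 in WT. The suffix of 1419971_s_at marks possible binding to more than 1 transcript, and without such probe sets the gene was 1.88-fold lower and no longer over 2-fold.

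Dubr was the only one of the 10 members on its side of Cd47. Its probe set 1430030_at read 244 in CD47 KO and 599.8 in WT, which was 2.46-fold lower (log2 ratio -1.30). It stood at rank 20 from the lowest of all genes measured, where Cd47 stood at rank 8 and Slc35a5 at rank 43. No further probe set of Dubr was there to repeat the value.

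Counted by probe set, 18 of the 21 were above the floor in at least 1 pool, 15 of them in both, and 3 gave bounds. Of the 18, 2 were over 2-fold higher and 3 over 2-fold lower in CD47 KO. Over all 23846 probe sets measured, 1.06% were over 2-fold higher and 0.751% over 2-fold lower. The dimmer probe sets of the array varied more: the SD of the log2 ratio was 0.40 in the dimmest of 4 equal groups of probe sets by brightness and 0.27 in the brightest. The main probe sets of Ccdc80 and Slc35a5 were in the brightest group, whereas that of Dubr was in group 2, counted from the dimmest. In group 2 the SD was 0.37 and 2.16% of probe sets were over 2-fold, against 1.04% in the brightest group.

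**Figure D2:**
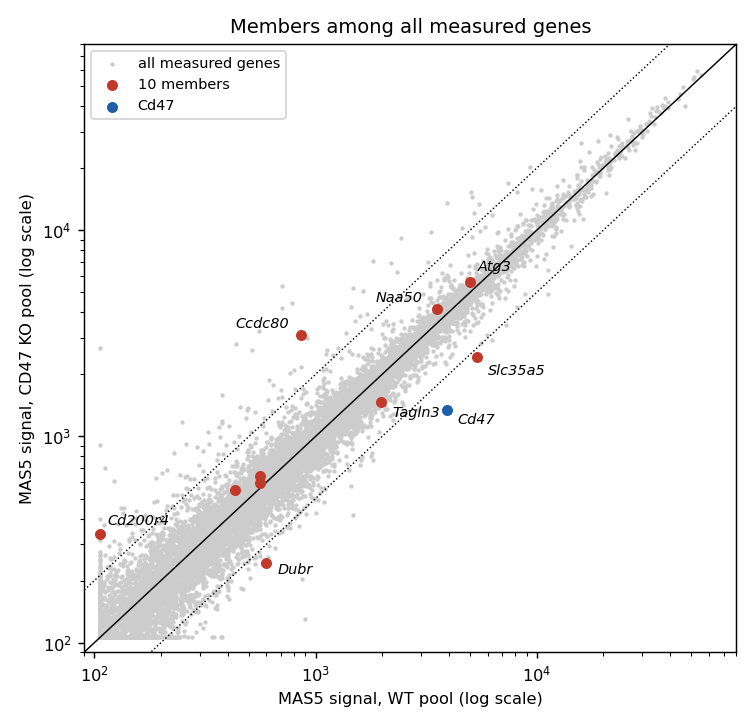
MAS5 signal in the CD47 KO pool (vertical, log axis) against the WT pool (horizontal, log axis) for all 12473 measured genes (grey), the 10 members (red) and Cd47 (blue), with values under the floor drawn at the floor. Equal signal is the solid line, a 2-fold difference the dotted ones. Ccdc80 and Cd200r4 lie above the upper dotted line, Slc35a5, Dubr and Cd47 below the lower one.

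The other 6 members differed by less than 2-fold between the pools, and Tagln3 was the farthest from 0, at a log2 ratio of -0.44. Atg3 read 5634 in CD47 KO and 5008 in WT with 1448993_at (log2 ratio 0.17), and its 1418179_at was under the floor in both pools. Atg3 therefore stood 0.17 above 0 beside Slc35a5, the gene that shares its upstream stretch, at 1.15 below 0. Naa50, an N-terminal acetyltransferase, was measured by 3 probe sets. They read 4156, 1339 and 939.9 in CD47 KO, against 3543, 1245 and 987 in WT in the same order, with log2 ratios of 0.23, 0.10 and -0.07. Spice1, a protein of centrioles and the mitotic spindle, read 592 in CD47 KO and 558 in WT with its brightest probe set and 476 in CD47 KO and 429 in WT with the next (log2 ratios 0.09 and 0.15). Its 1458174_at was under the floor in both pools. None of the probe sets of Atg3, Naa50 and Spice1 above the floor differed by more than 1.17-fold.

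Usf3, named as a member of the upstream stimulatory factor family of transcription factors, read 644 in CD47 KO and 559 in WT (log2 ratio 0.21). Tagln3, a neuronal relative of the actin-binding protein transgelin, read 1462 in CD47 KO and 1981 in WT (log2 ratio -0.44). Abhd10, a depalmitoylating enzyme of mitochondria, gave opposite signs with its 2 probe sets. Probe set 1427959_at read 552 in CD47 KO and 434 in WT (log2 ratio 0.35), while 1427958_at read 393 in CD47 KO and 519 in WT (log2 ratio -0.40). These differed by 0.75, slightly more than 95% of all pairs of probe sets of 1 gene, so no direction is given for Abhd10.

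Places along the chromosome were taken as gene order, from RefSeq genes of assembly GRCm38.p6, since the files name no build. Dubr was 14 genes from Cd47. The other 9 members lay on the opposite side: Abhd10 was 49 genes away, Tagln3 50, Atg3 64, Slc35a5 65, Ccdc80 66, Cd200r4 71, Spice1 86, Usf3 88 and Naa50 89. Ccdc80, Slc35a5 and Atg3 follow each other directly, and their log2 ratios in that order were 1.86, -1.15 and 0.17. Neighbouring places thus went with opposite directions, and 3 of the 4 members over 2-fold lay within 7 places of each other, from Cd200r4 to Slc35a5.

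**Figure D3:**
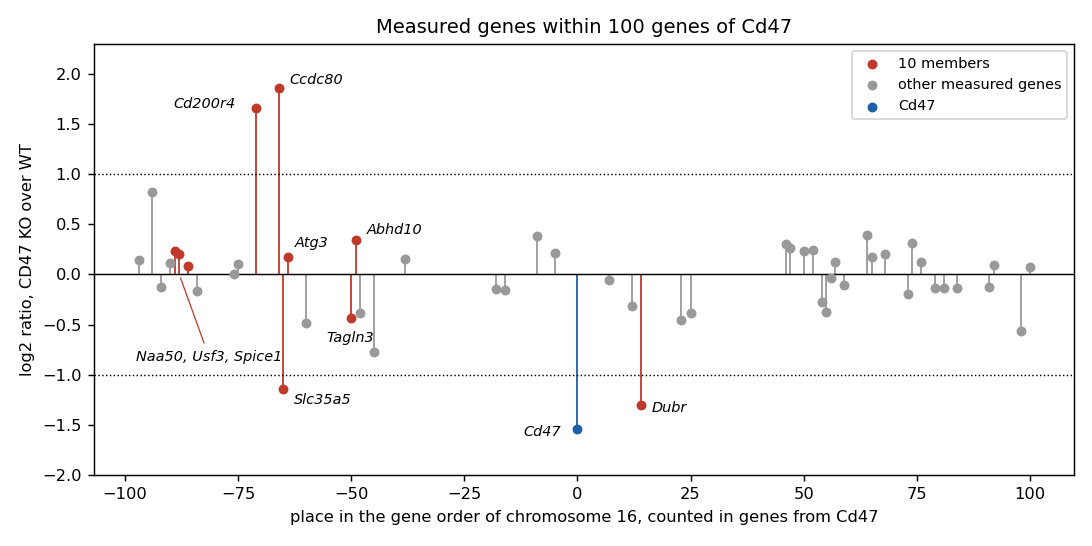
Log2 ratio of CD47 KO over WT (vertical) of each measured gene within 100 genes of Cd47 against its place in the gene order of chromosome 16, counted in genes from Cd47 (horizontal), with the 10 members in red, Cd47 in blue, other genes in grey and dotted lines at a 2-fold difference. Cd200r4, Ccdc80, Slc35a5 and Dubr are the neighbours past the dotted lines, and none of the grey points in this window reaches them. Members were chosen partly on these values, so nothing is read from this contrast.

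Within 100 genes of Cd47 on either side, 81 of 200 genes had a probe set and 51 were measured. Of the 51, 4 were over 2-fold (7.84%), and all 4 were members. Over the rest of chromosome 16, 7 of 353 genes were over 2-fold (1.98%), 3 higher and 4 lower in CD47 KO. On all other chromosomes 241 of 12045 genes were over 2-fold. The median log2 ratio was 0.07 within the window, with 27 genes above 0 and 24 below 0, and it was -0.02 on the other chromosomes. Since members were chosen with these ratios in view, the share in the window was not tested. Chromosome 16 as a whole had 2.96% of its genes over 2-fold, in a range of 1.12% to 3.23% over the 20 chromosomes. That share takes in Cd47 itself and the 4 members, so nothing is read from its place in the range.

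Because members were chosen with these ratios in view, the count over the genes left over is not set against theirs. The 41 measured genes of the window that are not members had 0 over 2-fold, with 20 above 0 and 21 below 0. Among their 75 measured probe sets 1 was over 2-fold: 1435462_at of Plcxd2, which read 98.7 in CD47 KO and 350.1 in WT, at least 3.29-fold lower. The brighter probe set of Plcxd2 read 273 in CD47 KO and 466 in WT (log2 ratio -0.77), and this gene is singled out here after its values were seen. On the side of Abhd10 the 5 nearest measured genes, Ift57, Gm4802, Retnla, Dzip3 and Nectin3, had log2 ratios of 0.21, 0.38, -0.14 (a bound), -0.16 and 0.16. On the side of Dubr the nearest were Bbx, 4930542D17Rik, Dubr itself, Cblb and Alcam. Bbx, 7 genes away, had log2 ratios of -0.06, 0.01 and 0.74 over its 3 probe sets, from the brightest to the dimmest, so no direction is given for it. The next, 4930542D17Rik, a noncoding RNA 2 places before Dubr, read 213 in CD47 KO and 266 in WT (log2 ratio -0.32). Cblb, an E3 ubiquitin ligase, stood at -0.45 with its brightest probe set and at -0.01 and 0.35 (a bound) with the others, so no direction is given for it either. Alcam, a cell adhesion molecule, stood at -0.38 to -0.47 over its 4 probe sets. Between Abhd10 and Dubr, leaving out Cd47, 0 of 9 measured genes were over 2-fold.

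The relatives and partners of each member, from lists of its family or pathway, were set beside it. For Slc35a5, 12 of 14 SLC35 nucleotide sugar transporters were measured, and Slc35a5 was the single one over 2-fold. The other 11 lay between -0.28 for Slc35c2 and 0.34 for Slc35d2 (a bound) with a median of 0.06. For Cd200r4, the receptors Cd200r1 and Cd200r3 were under the floor in both pools. The ligand Cd200, which lies 60 genes from Cd47 on the same side as Cd200r4, read 1511 in CD47 KO and 2111 in WT (log2 ratio -0.48). With Cd200r1, the known receptor of CD200, under the floor, the pathway was measured through its ligand alone beside Cd200r4.

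For Atg3, all 17 genes of LC3 and ATG12 conjugation were measured and 0 were over 2-fold in either direction. They ranged from -0.32 for Atg7, the E1-like enzyme of the pathway, to 0.19 for Atg16l1, with Atg10, the other E2-like enzyme, at -0.29. The median of the list was -0.01. For Naa50, 10 of 12 N-terminal acetyltransferase genes were measured and 0 were over 2-fold, from -0.48 for Naa25 to 0.33 for Naa16 and 0.31 for Naa15, the auxiliary subunit with which Naa50 associates. Of 12 centriole and spindle genes, Spice1 included, 9 were measured and 0 were over 2-fold, and Cep192, Cep63 and Plk4 had ratios of 0.48, 0.38 and -0.33. For Atg3, Naa50 and Spice1, the partners thus lay on both sides of 0 and none was over 2-fold.

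For Abhd10, the 9 depalmitoylating enzymes had a median of 0.14, with Abhd17c at 0.36 and Ppt2 at -0.35, and 0 were over 2-fold. For Tagln3, 5 of 6 transgelins and calponins were measured and 0 were over 2-fold: Cnn2 stood at -0.56, Cnn3 at 0.43 and Tagln, the form of smooth muscle, at 0.46. For Usf3, 6 of 7 USF and MiT factors were measured and 0 were over 2-fold. Tfeb, a regulator of lysosomal genes, was the farthest, with 388 in CD47 KO and 203 in WT (log2 ratio 0.93), followed by Mitf at 0.36. Tfe3 stood at -0.23. Usf1 and Usf2, which are known to bind CACGTG, read 415 and 881 in CD47 KO, against 480.1 and 918 in WT. Srpx and Srpx2, relatives of Ccdc80, and Dppa2 and Dppa4, the genes beside which Dubr is named, were under the floor in both pools, so those members have no measured relative.

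**Figure D4:**
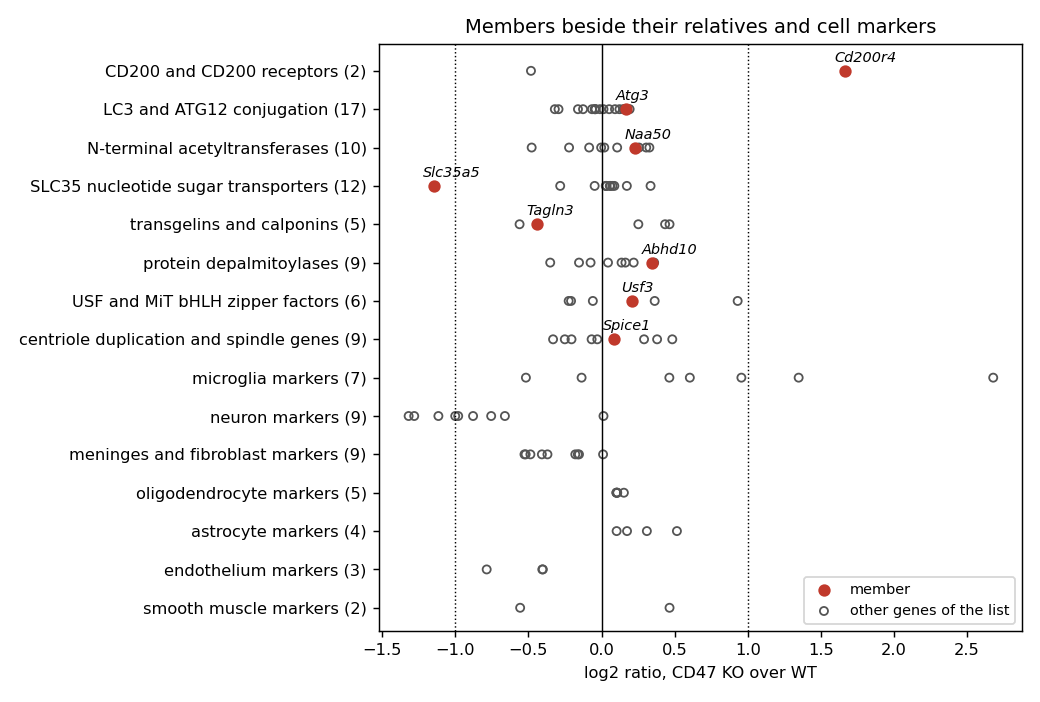
Log2 ratios, CD47 KO over WT (horizontal), of the measured genes in the lists of relatives and of cell type markers (vertical, number of measured genes in brackets), with members in red, other genes as open circles and dotted lines at a 2-fold difference. Slc35a5 lies to the left of the other 11 SLC35 genes, Cd200r4 has only the ligand Cd200 beside it, and the neuron markers lie mostly to the left of 0.

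The pools also differed in markers of cell types in which some members are known to be expressed. With 1 pool of dissected tissue per genotype, fewer cells of a type, less RNA per cell and a difference in the tissue dissected cannot be told apart. Beside Cd200r4, 5 of 7 measured microglia markers were above 0, and 2 were over 2-fold higher in CD47 KO: Trem2, at 6.40-fold, and Cx3cr1, at 2.55-fold. Aif1 followed at 1.94-fold. The summed intensity of all 7 measured microglia markers was 31385 in CD47 KO and 21118 in WT. The brightest, Csf1r, read 21740 in CD47 KO and 15765 in WT, while Tmem119 (-0.52) and P2ry12 (-0.14) were below 0. The part of the microglia in the value of Cd200r4 was not tested.

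Beside Tagln3, a gene of neurons, 8 of 9 neuron markers had ratios below 0. Past 2-fold in that direction were 4 of them, Nefm (-1.32), Slc17a6 (-1.28), Gad1 (-1.12) and Rbfox3, which read 341 in CD47 KO and 682 in WT. The summed intensity of all 9 neuron markers was 9699 in CD47 KO and 17096 in WT, and the brightest, Snap25, read 2843 in CD47 KO and 5610 in WT. Tagln3, at -0.44, was closer to 0 than 8 of these 9 markers; the part of neurons in its value, and in those of Dubr and Slc35a5, was not tested. Beside Ccdc80, which fibroblasts are known to secrete, 8 of 9 markers of meninges and fibroblasts were below 0 and 0 were over 2-fold. The summed intensity of all 9 was 35013 in CD47 KO and 41746 in WT, and the brightest, Dcn, read 9955 in CD47 KO and 12866 in WT. The largest differences in this list were those of Aldh1a2 (-0.53), Col1a1 (-0.52) and Dpp4 (-0.49), and the part of these cells in the value of Ccdc80 was not tested. Markers of oligodendrocytes, the cells that make myelin, had a median of 0.11 over 5 measured genes, led by Mobp (0.15), Mog (0.11) and Mag (0.11). The 4 astrocyte markers had a median of 0.24, with Gfap at 0.52, Aqp4 at 0.31 and Slc1a3 at 0.17. The 3 measured endothelial markers had a median of -0.41 (Kdr -0.79, Flt1 -0.41 and Cldn5 -0.40). The 2 of smooth muscle, Acta2 (-0.56) and Tagln (0.46), lay on opposite sides of 0.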

How the data were processed

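Total RNA of the optic nerve and optic tract was pooled by genotype, biotinylated with a 3' IVT kit and hybridised, 1 array per genotype. The authors scanned the arrays with Command Console and processed them with Expression Console. The deposited table holds the linear MAS5 signal intensity of every probe set, which the authors had scaled so that the trimmed mean of each array, with 2% left out at each end, was 500.003. MAS5 is named with its version not given in the sources used here. Detection calls were not used here, and the floor took their place. The floor limits noise near background and shortens ratios of dim genes.

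Of 45101 probe sets, 64 controls were left out, and 34945 had 1 gene symbol, 932 several and 9160 none; those with several or none were not used. Of those with 1 symbol, 34741 matched the RefSeq gene table of GRCm38.p6, from which only names and gene order were taken. Promoter sequences of 9 of the 10 members were matched in RefSeq. For Ccdc80 no match was found. Ratios were computed with Python 3.11.15, pandas 2.3.3 and numpy 2.4.6. The steps were tested on simulated data in which differences were planted in genes well above the floor. Planted differences in dimmer genes, and bounds, were not covered by that test. The planted differences were larger than the ratios of the members above the floor in both pools. The simulated noise was smaller than the SD of the log2 ratio in every brightness group of the data.

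The members and the 17 lists (130 genes) were chosen with earlier results of these data known. Genes named were all members, Cd47, the 5 nearest measured genes on each side, those of the window over 2-fold, and of each list the 3 with the largest ratio, any over 2-fold where these were 5 or fewer, and the brightest cell marker; others named, among them Plcxd2, Tmem119, P2ry12, Usf1 and Usf2, were chosen after their values were seen. A fold of 2 was the threshold, as in the study. The alternatives tried were other floors, no floor, quantile normalisation, median centring, loess, other choices of probe set, a 1.5-fold threshold and windows of 10, 25 and 50 genes. The number of arrays limits the precision.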

Additional observations from a re-analysis of the deposited data

How the results depend on the processing

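No paired analysis was possible because each genotype had 1 array, and for the same reason no array could be left out. Over 8 settings of floor, scaling and probe set choice, 75 of 80 values of the 10 members moved by less than 0.36, the SD between probe sets of 1 gene, and 5 moved by more. A floor cannot change a ratio whose signals lie above it in both pools. Probe set choice cannot change a gene with a single probe set. Many of these values could therefore not move, and their count is no measure of robustness. Ccdc80 was 1.02 with the median over its probe sets, which takes in its dim one. Abhd10 was -0.028 with that median, since its probe sets had opposite signs. Cd200r4 was 2.32 with the floor at the 40th percentile, 0.85 at the 60th and 4.23 with no floor, since its WT signal lies under each floor. Dubr and Ccdc80 were over 2-fold in 8 of 8 settings, Slc35a5 in 7 (-0.91 without probe sets marked _x, _s or _a) and Cd200r4 in 7. Only the scaling settings could change the value of Dubr, whose single probe set lies above every floor in both pools. Of the other 6 members 0 passed 2-fold in any.

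With no floor, 17 of 81 measured genes within 100 genes of Cd47 were over 2-fold, against 4 of 51 with the floor. Over all genes with no floor, 7.07% were over 2-fold higher and 7.94% over 2-fold lower. The window of 10 genes on each side held 0 of 3 measured genes over 2-fold, that of 25 held 1 of 9 and that of 50 held 1 of 17. Slc35a5, Ccdc80 and Cd200r4, at 65, 66 and 71 genes from Cd47, lie outside these windows. The median of the window changed sign, to -0.05 without probe sets marked _x, _s or _a, to -0.16 within 25 genes and to -0.14 within 50; the cause was not tested. Among all genes, 151 of 12473 were over 2-fold higher in CD47 KO and 102 were over 2-fold lower. These counts became 1287 and 1445 of 18193 genes with no floor. They were 111 and 55 of 10838 when the floor was raised to the 60th percentile, and 212 and 173 of 13958 when it was lowered to the 40th. Signals under the floor, such as Cd200r4 and the dimmer probe set of Ccdc80 in WT, leave only a bound on the size of the difference.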
